A study of Mus musculus with 37 samples.

Results

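The transcripts of p53 and of 9 genes that act with it in cell-cycle arrest and feedback were followed through irradiation and treatment with vasoactive intestinal peptide (VIP) in mouse intestinal organoids. The 10 genes are Trp53, Cdkn1a, Mdm2, Ccng1, Plk2, Btg2, Sesn1, Sesn2, Trp53inp1 and Zmat3. They were chosen by symbol, with earlier results of these data known. All 10 were found among the 27547 genes of the irradiation experiment, the 20500 genes of a separate sorted-cell experiment and the 27407 genes of a whole-organoid experiment.

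The p53 protein, encoded by Trp53, is a transcription factor that is stabilised when DNA is broken, mostly without a change in the level of its own mRNA. It then raises transcription of arrest genes such as Cdkn1a, whose product p21 inhibits cyclin-dependent kinases, and of Mdm2, whose product is the ubiquitin ligase that marks p53 for degradation and so closes a feedback loop. In the intestinal crypt, the response to ionising radiation has long been studied because cycling stem and progenitor cells at the crypt base are among the most radiosensitive cells of the body.

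Jejunal organoids are crypt-derived epithelial cultures grown in a gel, here from male and female mice of 6 to 12 weeks. In the irradiation experiment, organoids of Lgr5-EGFP-IRES-CreERT2 reporter mice, in which the stem cell gene Lgr5 drives a green fluorescent protein, received 6 Gy of X-rays or none and then 100 nM VIP or no VIP for 48 h. Lgr5-EGFP+ cells were sorted from all 4 groups, each with organoids of the same 4 mice, so that every comparison was made within mice. The separate sorted-cell experiment held Lgr5-EGFP+ cells of 4 mice of this reporter genotype, with 100 nM VIP or without it for 72 h and no irradiation. The whole-organoid experiment held C57Bl6/J organoids with 100 nM VIP (4 mice) or without (3 mice) for 72 h, also not irradiated. The reporter is a knock-in at Lgr5, so all sorted samples, controls included, carry it, and the sort keeps cells by their fluorescence and not by Lgr5 RNA.

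RNA was tagged at its 3′ end with a random barcode, the unique molecular identifier (UMI), and 1 count therefore stands for 1 tagged molecule whatever the gene's length. Levels are given below as CPM, the counts brought to a common nominal library total after scaling by the trimmed mean of M-values. Totals were 1075715 to 1876729 UMIs per sample in the irradiation experiment, 575242 to 1104126 in the separate sorted-cell experiment and 3722716 to 6330404 in whole organoids. The sorted cells of the irradiation experiment held the stem cell markers Olfm4 at 1663 to 4749 CPM and Ascl2 at 178 to 345 CPM, while Lgr5 itself was low, at 12.6 to 39.0 CPM. In untreated, non-irradiated samples Lgr5 was at 12.6 to 28.2, Olfm4 at 2468 to 3507 and Ascl2 at 252 to 282 CPM. Unsorted whole-organoid controls had 45.2 to 100.1, 1318 to 3722 and 153 to 172 CPM. Summed Paneth (8795 to 12347 against 9953 to 19007 CPM) and goblet cell markers overlapped between these groups. Enterocyte markers were lower in sorted cells (1758 to 2231 against 16385 to 17462 CPM). Enrichment by the sort was not tested. Leukocyte, fibroblast and endothelial markers (Ptprc, Cd3e, Col1a1, Col3a1, Pdgfra, Pecam1) had 0 to 4 counts in any sample of the irradiation experiment. Vim, also listed as a non-epithelial marker, had 16 to 133 counts.

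The sequences below are promoters of 4 of the 5 genes in which a match to the p53 consensus letters was found. Sesn1, the other gene with a match, is described but not printed. RefSeq promoter sequences of GRCm38.p6, from 250 bases before to 50 bases after each transcript start, were found for 8 of the 10 genes, in 10 windows. Each window was searched on both strands for the p53 consensus motif of 10 bases, and a full site was counted where 2 copies lay 0 to 13 bases apart without overlap. In the sequences, read 5′ to 3′ on the gene's own strand, capitals mark the 10-base matches.

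Cdkn1a, chr17:29090729-29091028, plus strand: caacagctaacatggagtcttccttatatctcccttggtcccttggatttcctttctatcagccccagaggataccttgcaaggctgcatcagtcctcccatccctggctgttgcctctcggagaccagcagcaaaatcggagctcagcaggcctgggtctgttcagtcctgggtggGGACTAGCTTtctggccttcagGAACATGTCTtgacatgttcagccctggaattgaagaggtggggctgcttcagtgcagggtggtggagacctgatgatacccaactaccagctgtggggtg
Mdm2, chr10:117710709-117711008, minus strand: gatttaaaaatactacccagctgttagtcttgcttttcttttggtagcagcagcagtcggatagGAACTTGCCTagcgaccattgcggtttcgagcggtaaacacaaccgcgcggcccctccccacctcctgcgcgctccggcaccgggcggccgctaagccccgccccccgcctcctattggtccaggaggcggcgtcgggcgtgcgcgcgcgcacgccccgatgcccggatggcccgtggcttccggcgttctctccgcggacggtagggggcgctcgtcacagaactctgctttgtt
Ccng1, chr11:40755237-40755536, minus strand: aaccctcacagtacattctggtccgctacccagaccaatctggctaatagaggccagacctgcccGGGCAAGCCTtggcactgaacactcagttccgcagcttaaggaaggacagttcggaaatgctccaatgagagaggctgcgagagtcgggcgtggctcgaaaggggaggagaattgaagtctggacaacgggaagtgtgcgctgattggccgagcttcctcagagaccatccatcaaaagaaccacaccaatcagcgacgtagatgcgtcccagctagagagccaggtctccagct
Trp53, chr11:69580109-69580408, plus strand: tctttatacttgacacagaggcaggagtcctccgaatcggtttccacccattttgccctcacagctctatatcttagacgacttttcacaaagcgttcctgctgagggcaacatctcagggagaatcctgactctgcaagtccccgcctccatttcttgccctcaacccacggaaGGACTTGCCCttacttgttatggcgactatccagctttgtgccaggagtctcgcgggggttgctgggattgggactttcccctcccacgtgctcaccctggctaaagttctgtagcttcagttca

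The Cdkn1a window belongs to the upstream of 2 listed transcript starts and was the only member window with a full site. Its matches GGACTAGCTT and GAACATGTCT lie 12 bases apart, and the last base of the pair is 2832 bases upstream of the other listed Cdkn1a start. The search allowed no mismatch. The 10 bases directly after GAACATGTCT, tgacatgttc, miss the motif in 1 letter and so were neither marked nor counted. Mdm2 held GAACTTGCCT, Ccng1 held GGGCAAGCCT and Trp53 held GGACTTGCCC, each as 1 match of 10 bases. The window of a downstream Sesn1 start (chr10:41887189-41887488) held AAGCTTGTTT. No match was found in the windows of Btg2, Sesn2 and Plk2 or in the other windows of Cdkn1a and Sesn1. Of all 32851 promoter windows of the same length, 8.36% held a 10-base match and 0.0731% a full site, against 5 and 1 of the 10 member windows. These are matches of letters, sequence outside the windows was not searched, and binding was not measured.

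On GRCm38 with GENCODE M21 the genes are protein-coding, with Trp53 at chr11:69580359-69591873, Cdkn1a at chr17:29090976-29100727 and Mdm2 at chr10:117688875-117710758. Other annotated genes overlap Cdkn1a (AC167363.2), Sesn1 (9930024M15Rik) and Sesn2 (Gm12981), and whether these share counts with the members was not tested.

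Irradiation of organoids without VIP was compared first, to ask which p53-related transcripts differ in Lgr5-EGFP+ cells 48 h after 6 Gy. 8 of the 10 genes rose: Cdkn1a, Mdm2, Ccng1, Plk2, Btg2, Sesn2, Trp53inp1 and Zmat3, by 1.37-fold (Btg2) to 2.97-fold (Sesn2). Trp53 itself and Sesn1 did not pass the test. Calls are at an adjusted p of at most 0.05 in edgeR's quasi-likelihood test with mouse as a block, and across all 9976 genes tested 2.87% were called higher. The median log2 fold change was 1.17 over the 10 genes and -0.0041 over all genes.

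Cdkn1a had the highest mean of the 10 in every group of this experiment, although in VIP-treated, non-irradiated cells Trp53 (193 ± 13.8 CPM) lay within its spread (196 ± 33.3 CPM, SD, n = 4). Without irradiation it stood at 354, 281, 275 and 254 CPM in mice 1 to 4, and after irradiation at 588, 697, 638 and 647 CPM. Every irradiated sample lay above every non-irradiated sample, and the lowest irradiated value was well clear of the highest control, that of mouse 1. The fold change was 2.21 (95% interval 1.93 to 2.54, log2 fold change 1.15, SE 0.10, adjusted p = 6.06e-08).

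The feedback gene Mdm2 was at 22.6, 24.4, 22.9 and 25.3 CPM without irradiation, with little spread between mice. After irradiation it was at 42, 84.6, 40.6 and 65.2 CPM, with mice 2 and 4 above mice 1 and 3 but no overlap with the controls (2.42-fold, log2 fold change 1.28, SE 0.16, adjusted p = 1.62e-05). Ccng1 encodes cyclin G1, which recruits a phosphatase to Mdm2. It rose from 70.9, 59.5, 61.2 and 43.9 CPM to 117, 141, 111 and 159 CPM, again without overlap (2.23-fold, log2 fold change 1.15, SE 0.14, adjusted p = 1.05e-05).

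Among the arrest genes beside Cdkn1a, Plk2, a polo-like kinase, went from 27, 21.9, 31.5 and 19.3 CPM to 42, 74.7, 61.8 and 74.5 CPM. Mouse 1 had the lowest irradiated value and still exceeded all 4 controls (2.48-fold, log2 fold change 1.31, SE 0.17, adjusted p = 2.3e-05). Btg2, an antiproliferative factor that works with the mRNA deadenylation machinery, was abundant at 111, 131, 99.6 and 128 CPM and reached 133, 165, 189 and 159 CPM. The groups of Btg2 nearly touched, at 131 and 133 CPM, and its fold was the smallest of the 8 genes (1.37-fold, log2 fold change 0.45, SE 0.11, adjusted p = 0.011). Without mouse 3, Btg2 lost its call (log2 fold change 0.31, adjusted p = 0.163).

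The sestrins curb mTORC1 signalling in nutrient and oxidative stress, and the pair is described side by side. Sesn2 rose from 17.6, 14.4, 18.3 and 9.98 CPM to 33.7, 59.3, 40.6 and 49.4 CPM, the largest estimated fold of the 10 (2.97-fold, log2 fold change 1.57, SE 0.19, adjusted p = 1.1e-05). Its 95% interval of 2.26 to 3.89 holds the folds of Mdm2, Plk2, Trp53inp1 and Zmat3. Sesn1 stood at 20.1, 13.8, 17.2 and 15.3 CPM without irradiation and 12.4, 16.5, 11.6 and 14.9 CPM with it. These groups overlapped and 3 of 4 mice were lower after irradiation (log2 fold change -0.24, SE 0.22, adjusted p = 0.663), with a 95% interval of the fold from 0.615 to 1.16. The difference between the sestrins was not itself tested.

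The other 2 genes that rose had the lowest control means of the 8, although Zmat3 lay within the spread of Sesn2. Trp53inp1, whose product is a nuclear cofactor of p53 and takes part in autophagy, went from 5.65, 3.76, 7.44 and 5.99 CPM to 11.8, 21.4, 18.4 and 11.2 CPM. This is the lowest gene of the 10 in controls, with 6 to 13 counts per sample, and its interval was wide (2.7-fold, 95% interval 1.73 to 4.21, adjusted p = 0.00584). Without mouse 2 the call was lost (log2 fold change 1.10, adjusted p = 0.12). Zmat3, an RNA-binding zinc finger protein that acts on splicing, rose from 15.1, 15.6, 10.9 and 12.6 CPM to 27.8, 37.4, 29 and 28.9 CPM with no overlap (2.28-fold, log2 fold change 1.19, SE 0.21, adjusted p = 0.000842).

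Trp53 mRNA did not rise. It stood at 143, 171, 189 and 182 CPM without irradiation and 128, 154, 131 and 157 CPM with it, lower in all 4 mice within the pair although the groups overlapped. The difference had an unadjusted p under 0.05 but did not pass the adjusted test (log2 fold change -0.26, SE 0.10, adjusted p = 0.139), and the 95% interval of the fold ran from 0.726 to 0.957. Thus 8 of the 10 genes lay higher in every irradiated sample than in any control, against 4.64% of all genes tested.

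**Figure D1:**
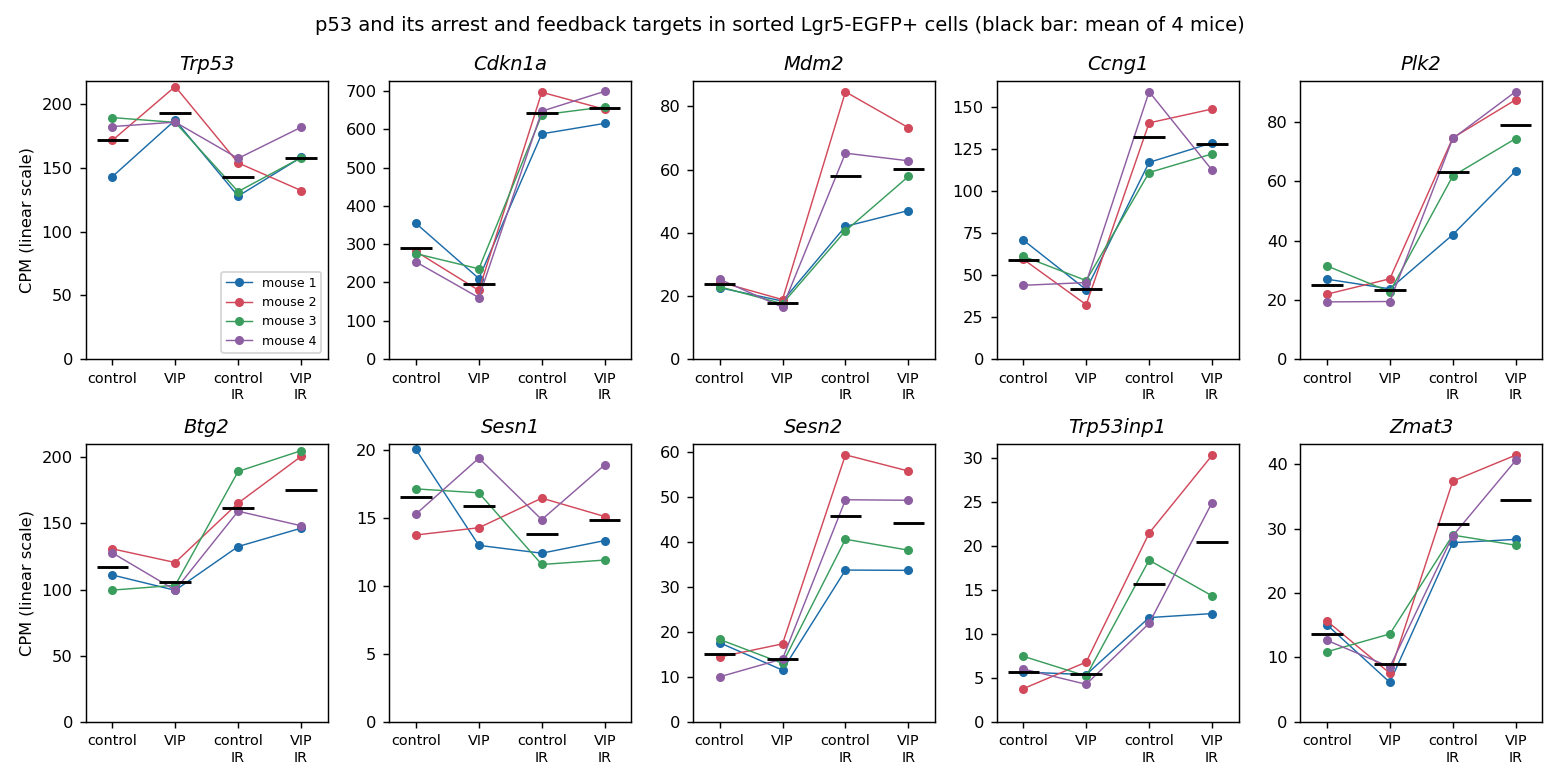
Level of each gene in CPM (linear axis from 0) in Lgr5-EGFP+ cells of the 4 groups of the irradiation experiment, with points joined by mouse and black bars at the mean of 4 mice. The irradiated samples of Cdkn1a sit at 588 to 699 CPM against 160.3 to 354 CPM without irradiation, while Trp53 and Sesn1 overlap between the groups without VIP.

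The order of levels shifted accordingly. In controls the mean ± SD was 291 ± 43.9 CPM for Cdkn1a (n = 4), 172 ± 20.4 for Trp53, 117 ± 14.7 for Btg2 and 58.9 ± 11.2 for Ccng1, each clear of the next by more than the spread. Below them Plk2 (24.9 ± 5.41) and Mdm2 (23.8 ± 1.28) did not differ beyond their spread, nor did Sesn1 (16.6 ± 2.71), Sesn2 (15.1 ± 3.79) and Zmat3 (13.6 ± 2.21). After irradiation Btg2 (162 ± 23.4) and Trp53 (143 ± 15.2) lay within each other's spread, and Sesn1 (13.9 ± 2.25) and Trp53inp1 (15.7 ± 5.01) at the bottom did not differ beyond their spread.

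The wider p53 network was read from gene lists beside the same background of 2.87% called higher. Of 12 tested genes of the apoptosis arm, 5 rose and none fell, with a median log2 fold change of 0.67. They include Bax (0.68, adjusted p = 9.82e-06), a pore-forming protein of mitochondria, Bbc3 (0.67, 0.00112), which encodes PUMA, Siva1 (0.54, 0.000154) and Ei24 (0.65, 0.000565). Of 15 tested targets in repair, metabolism and secretion, 6 rose (median 0.29), among them Phlda3 (1.34, 1.52e-07), an inhibitor of Akt, and the detoxifying epoxide hydrolase Ephx1 (1.17, 1.94e-05). Eda2r, a death-receptor relative, had 1.82 (adjusted p = 9.77e-05) and the secreted stress cytokine Gdf15 0.82 (adjusted p = 0.00167).

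Genes upstream of p53 and relatives of its targets came next. None of 12 tested p53 regulators (kinases, ligases and p53 partners) passed the test, with a median of 0.20. The values of the 4 with the smallest p were 0.52 for Mdm4, 0.53 for Chek1, 0.76 for Trp53bp2 and 0.39 for Hipk2. Of 12 tested paralogs of the 10 genes, 1 rose, Tob1 (0.52, adjusted p = 0.00925), a relative of Btg2, while the third sestrin Sesn3 had -0.52 (adjusted p = 0.342). Of 39 cell cycle genes known to be repressed downstream of p21, none fell and 1 rose, the ribonucleotide reductase subunit Rrm2 (0.30, adjusted p = 0.0145), and the median was -0.06. Immediate early and dissociation genes gave 1 rise (Junb, 0.35, adjusted p = 0.0151) and 1 fall (Jun, -0.30, adjusted p = 0.0122) among 20 tested.

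**Figure D2:**
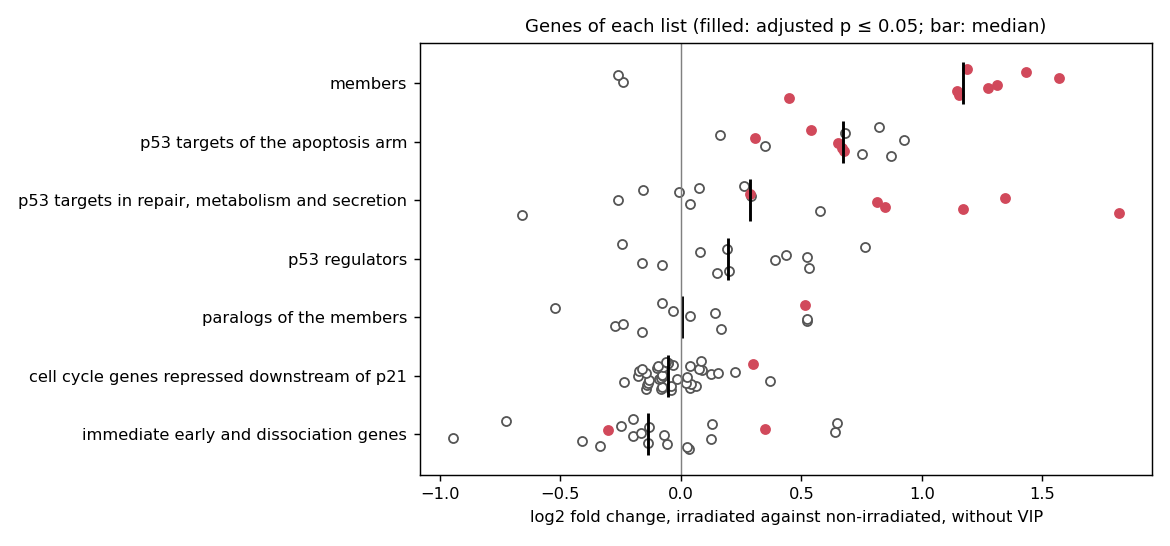
Log2 fold change with irradiation, without VIP, of every tested gene of the 10 members and 6 lists, where filled points passed an adjusted p of 0.05 and bars mark the list median. The medians run from 1.17 for the members and 0.67 for the apoptosis arm to -0.14 for the immediate early genes.

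Markers of differentiated cells moved with irradiation too. All 5 tested Paneth cell markers, 5 of 7 goblet cell markers, 3 of 9 enterocyte markers and 3 of 5 enteroendocrine markers rose, as did Vim, the only tested gene of the 7 non-epithelial markers, and neither of the 2 tested tuft cell markers passed. None of the 9 stem cell markers was called higher and 2 were called lower, Olfm4 (-0.64) and Smoc2 (-0.31). The median of the 9 was 0.02, and 5 of them had a positive log2 fold change. Summed over each list, Paneth cell markers lay at 8795 to 12347 CPM without and 12056 to 22534 CPM with irradiation, goblet cell markers at 5407 to 8327 and 7197 to 10254 CPM, and enterocyte markers at 1758 to 2231 and 2045 to 3749 CPM. Enteroendocrine markers lay at 1431 to 1853 and 2041 to 4576 CPM and stem cell markers at 3809 to 4961 and 2917 to 3420.1 CPM, both without overlap. Most of the stem cell sum was Olfm4, with medians of 3006 CPM without and 1955 CPM with irradiation. In bulk RNA, a changed share of a cell type in the sorted fraction and a changed amount of RNA per cell cannot be told apart, and the part of cell composition in the p53-related rises was not tested.

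With VIP present, irradiation again raised 8 of the 10 genes, with all 8 shared with the comparison without VIP, against 4.32% of all genes called higher. The median log2 fold change was 1.70. VIP-treated cells went from 210.3, 179, 236 and 160.3 CPM of Cdkn1a without irradiation to 615, 652, 659 and 699 CPM with it, a 3.36-fold rise (95% interval 2.91 to 3.88, log2 fold change 1.75, SE 0.10, adjusted p = 2.37e-11). No sample of either group came near the other.

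Mdm2 rose from 18.4, 18.8, 17.5 and 16.4 CPM to 47, 73.3, 57.8 and 62.8 CPM (3.38-fold, log2 fold change 1.76, SE 0.17, adjusted p = 1.25e-07). Ccng1 went from 41.3, 32.4, 46.7 and 45.6 CPM to 129, 149, 122 and 113 CPM (3.04-fold, adjusted p = 7.86e-08). In both genes the 4 irradiated samples were all above the 4 non-irradiated samples. Plk2 rose from 23.7, 27.1, 22.7 and 19.4 CPM to 63.6, 87.6, 74.5 and 90.4 CPM (3.42-fold, adjusted p = 1.25e-07). Zmat3 moved from 6.12, 7.53, 13.6 and 8.5 CPM to 28.3, 41.4, 27.4 and 40.6 CPM. It had the largest estimated fold of the 10 here (3.74-fold, 95% interval 2.72 to 5.14, adjusted p = 2.03e-06). That interval holds the folds of all other genes that rose except Btg2. The VIP-treated, non-irradiated samples of Zmat3 were low in mice 1, 2 and 4, and higher in mouse 3.

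Sesn2, Trp53inp1 and Btg2 followed the same course. Sesn2 lay at 11.5 to 17.3 CPM without and 33.7 to 55.7 CPM with irradiation (3.15-fold, adjusted p = 2.05e-06). Trp53inp1 lay at 4.25 to 6.77 and 12.3 to 30.3 CPM (3.72-fold, adjusted p = 0.000174), and Btg2 at 99.4 to 120.4 and 146 to 205 CPM (1.65-fold, adjusted p = 5.27e-05), with no overlap in any of the 3. Sesn1, at 13 to 19.4 and 11.9 to 18.9 CPM, overlapped throughout (log2 fold change -0.11, SE 0.22, adjusted p = 0.827). Trp53 stood at 187, 214, 186 and 186 CPM without irradiation and 158, 132, 158 and 182 CPM with it, and here its 4 irradiated samples all lay below the 4 others. It still missed the threshold (log2 fold change -0.28, SE 0.093, adjusted p = 0.0637). The 8 genes that rose were also those with no overlap upward, against 6.26% of all genes.

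**Figure D3:**
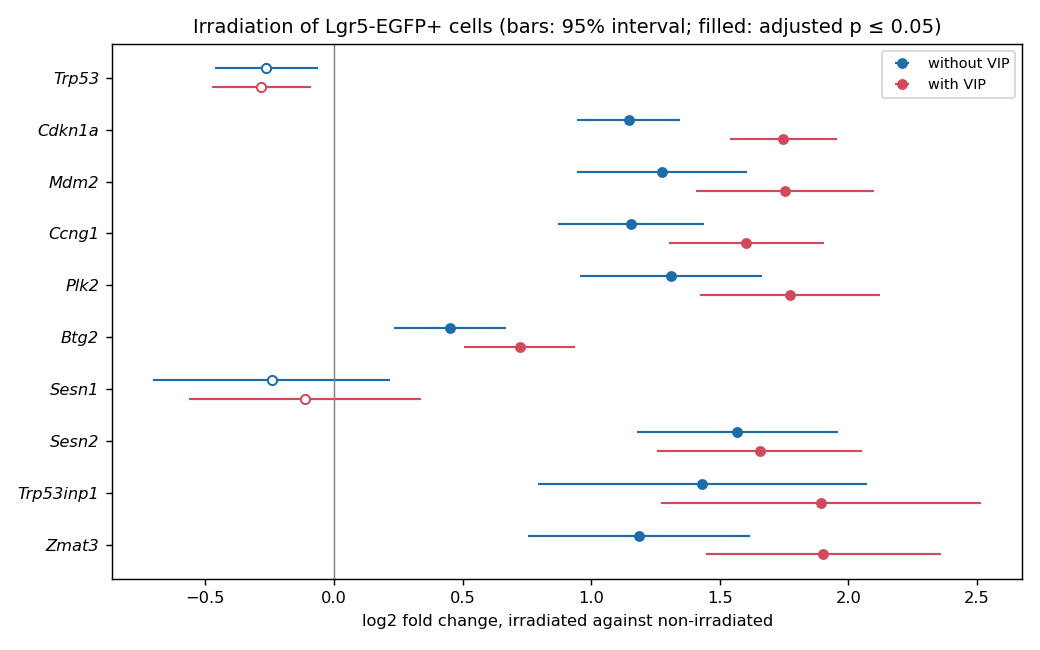
Log2 fold change of irradiated against non-irradiated Lgr5-EGFP+ cells for each gene, without VIP (blue) and with VIP (red), with 95% intervals, where filled points passed an adjusted p of 0.05. The 8 genes that rose lie at 0.45 to 1.57 without VIP and 0.72 to 1.90 with it, and Trp53 and Sesn1 lie below 0 in both.

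In the lists, VIP-treated cells showed 7 rises among 12 apoptosis-arm genes and 8 among 15 repair, metabolism and secretion genes (7 under another scaling), with no falls. Bbc3 rose by 1.25 (adjusted p = 3.16e-07), Phlda3 by 1.83 (adjusted p = 8.58e-10) and Eda2r by 2.09 (adjusted p = 1.51e-05) on the log2 scale. Of the regulators only Mdm4 rose, the partner and relative of Mdm2 (0.92, adjusted p = 0.00266). Among paralogs 3 of 12 rose (Mdm4, Tob1 and Cdkn1c). The cell cycle list gave 1 fall in 39 and the immediate early list 3 rises and 1 fall in 20. Paneth cell markers rose in 5 of 5, enteroendocrine in 5 of 5, goblet in 3 of 7 and enterocyte in 1 of 9 tested, while 1 stem cell marker rose (Cd44) and 2 fell.

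VIP without irradiation was then compared, to ask whether VIP alone moves the baseline of these transcripts. 1 of the 10 genes was called, Cdkn1a, which fell, against 0.261% of all genes called lower. In mice 1 to 4 it stood at 354, 281, 275 and 254 CPM without VIP and 210.3, 179, 236 and 160.3 CPM with VIP. Each mouse was lower with VIP, mouse 3 the least, and no VIP-treated sample reached the lowest control. The fold was 0.674 (95% interval 0.581 to 0.782, log2 fold change -0.57, SE 0.10, adjusted p = 0.00497).

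Mdm2 was also lower with VIP in every mouse without overlap, at 22.6 to 25.3 CPM in controls and 16.4 to 18.8 CPM with VIP, but did not pass the test (log2 fold change -0.43, SE 0.20, adjusted p = 0.374). Thus 2 of the 10 genes, Cdkn1a and Mdm2, did not overlap downward, against 3.08% of all genes. Ccng1 (log2 fold change -0.49, SE 0.16, adjusted p = 0.168) and Zmat3 (log2 fold change -0.57, SE 0.26, adjusted p = 0.375) were lower in 3 of 4 mice and missed the threshold. At an unadjusted p under 0.05 stood 4 of the 10 genes, Cdkn1a, Mdm2, Ccng1 and Zmat3, beside 1237 of 9976 genes tested. Trp53 had 0.17 (adjusted p = 0.487), and the other 5 genes had log2 fold changes of -0.15 to -0.059. Over the 10 genes the median was -0.14. With no filter on low counts Ccng1 was called as well (adjusted p = 0.0474).

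In the lists, Bbc3 was the only apoptosis-arm gene called, and it fell (-0.61, adjusted p = 0.032). No regulator, no paralog and no gene of repair, metabolism and secretion was called (1 fell under another scaling), and Phlda3 had -0.49 (adjusted p = 0.102). In the cell cycle list Mcm3, a subunit of the replicative helicase, rose (0.50, adjusted p = 0.0283), and no immediate early gene was called. Of the differentiation markers only enterocyte genes were called with VIP. Of 9 enterocyte markers 2 fell, and their sum was 1758 to 2231 CPM in controls and 1332 to 1686 CPM with VIP. No Paneth, goblet, enteroendocrine or tuft cell marker was called (1 goblet cell marker fell under another scaling). The goblet (5407 to 8327 and 4809 to 5415 CPM) and enteroendocrine (1431 to 1853 and 998 to 2607 CPM) sums overlapped. The sum of Paneth cell markers was 8795 to 12347 and 7478 to 8370.5 CPM, and that of stem cell markers, in which Olfm4 rose (0.57), 3809 to 4961 and 5779 to 6322 CPM. Their part in the lower Cdkn1a was not tested.

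After irradiation VIP left no called difference among the 10 genes. None of the 10 genes passed the test (1 at an unadjusted p under 0.05, Plk2), against 0.221% of all genes called in either direction, and DESeq2 called none. Cdkn1a was at 588, 697, 638 and 647 CPM without VIP and 615, 652, 659 and 699 CPM with it, overlapping and higher in 3 of 4 mice. The log2 difference was 0.032 with a 95% interval of -0.16 to 0.22. For Cdkn1a this is a fold of 0.895 to 1.17. Plk2 was higher with VIP in all 4 mice, at 63.6, 87.6, 74.5 and 90.4 CPM against 42, 74.7, 61.8 and 74.5 CPM without it, yet the groups overlapped (log2 fold change 0.33, SE 0.14, adjusted p = 0.769). Sesn2 was lower with VIP in all 4 mice by very little (-0.05, 95% interval -0.38 to 0.28). The other 7 genes lay between -0.046 (Ccng1) and 0.35 (Trp53inp1). No gene of the p53 lists was called, while the enterocyte marker Fabp1 fell by 1.37 on the log2 scale (adjusted p = 0.00041), 1 goblet cell marker fell and Olfm4 rose. A positive log2 fold change was found in 9 of 9 stem cell, 0 of 5 Paneth and 1 of 7 goblet cell markers. It was found in 1 of 9 enterocyte and 2 of 5 enteroendocrine markers. The stem cell sum was 2917 to 3420.1 CPM without and 3558 to 4244 CPM with VIP. Enterocyte sums were 2045 to 3749 and 1750 to 1970 CPM, and neither sum overlapped between the groups. Paneth, goblet and enteroendocrine sums overlapped. Their part in the values of the 10 genes was not tested.

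**Figure D4:**
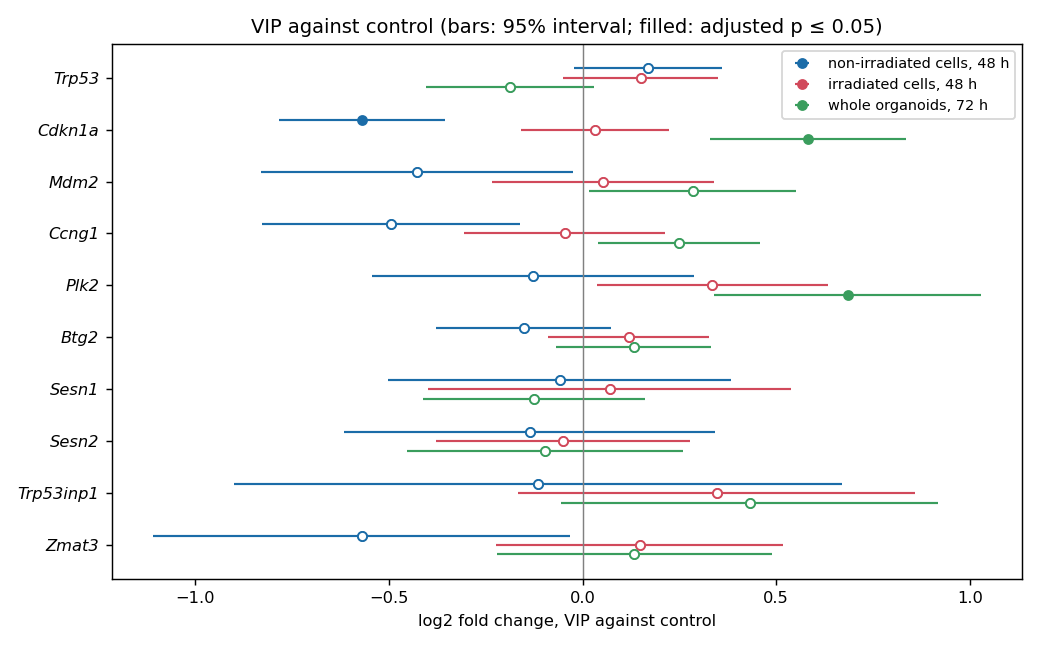
Log2 fold change of VIP against control for each gene in non-irradiated cells (blue) and irradiated cells (red) at 48 h and in whole organoids at 72 h (green), with 95% intervals, where filled points passed an adjusted p of 0.05. Cdkn1a lies at -0.57, 0.03 and 0.58 in these 3 comparisons.

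The difference between the irradiation responses with and without VIP was tested as an interaction. None of the 10 genes passed (3 at an unadjusted p under 0.05: Cdkn1a, Ccng1 and Zmat3), and 0% of all genes did, with 634 of 9976 at an unadjusted p under 0.05 and DESeq2 calling none of the 10. The estimate for Cdkn1a was 0.60 on the log2 scale (SE 0.14, 95% interval 0.31 to 0.89, adjusted p = 0.543), positive in 4 of 4 mice. For Zmat3 it was 0.72 (adjusted p = 0.741), for Mdm2 0.48 (adjusted p = 0.798) and for Ccng1 0.45 (adjusted p = 0.76). It was positive for 9 of the 10 genes, the exception being Trp53 (-0.02). The median was 0.45 over the 10 genes and 0.0059 over all genes. The interaction and the VIP difference without irradiation share the same samples and are not independent. With no filter on low counts Cdkn1a passed (0.62, adjusted p = 8.6e-05), and in the other alternatives its adjusted p was 0.327 to 0.981.

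The separate sorted-cell experiment was shallower, and 4 of the 10 genes (Trp53, Cdkn1a, Ccng1 and Btg2) passed the filter on low counts. None of the 4 was called after 72 h of VIP (1 at an unadjusted p under 0.05, Cdkn1a), against 0.0885% of all 6778 genes tested in either direction, and DESeq2 called none. Cdkn1a stood at 99, 140.4, 93.6 and 109 CPM without VIP and 57, 73.4, 102 and 98.5 CPM with it. It was lower in 3 of 4 mice, mouse 3 being the exception, and the groups overlapped (log2 fold change -0.44, SE 0.19, adjusted p = 0.884, 95% interval of the fold 0.564 to 0.96). Trp53 was at 124, 134, 132 and 161 CPM without VIP and 158, 107, 186 and 165 CPM with it (log2 fold change 0.15, SE 0.16, adjusted p = 0.957). Ccng1 ranged over 33.5 to 49.6 and 29.1 to 61.7 CPM and Btg2 over 42.8 to 104 and 48.5 to 75.2 CPM, both overlapping. The other 6 genes had 0 to 26 counts per sample, and in a fit without the filter none was called (adjusted p = 0.997 each), with SE of 0.36 to 0.90 on the log2 scale. No gene passed among the 6 regulators, 5 apoptosis-arm genes, 5 repair, metabolism and secretion genes, 8 paralogs and 39 cell cycle genes tested there, and of the markers 1 goblet cell gene fell.

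In whole organoids the direction for Cdkn1a was the opposite. VIP for 72 h raised 2 of the 10 genes, Cdkn1a and Plk2, against 3.72% of all 12727 genes called higher. Cdkn1a was at 265, 241 and 176 CPM in controls of mice 1 to 3 and 366, 473, 215 and 358 CPM with VIP in mice 1 to 4. It was higher with VIP in 3 of 3 paired mice, while across mice the groups overlapped with mouse 3 low in both (1.5-fold, log2 fold change 0.58, SE 0.12, adjusted p = 0.0093). Mouse 4 has no control here, so the blocked fit takes no VIP difference from it.

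Plk2 was at 9.5, 10.4 and 19.7 CPM in controls and 16.8, 17.5, 28 and 15.1 CPM with VIP, again higher in each paired mouse and highest in mouse 3 (1.61-fold, log2 fold change 0.68, SE 0.16, adjusted p = 0.0236). Both calls rested on the pairing and on single mice. Without the block neither passed (adjusted p = 0.459 for Cdkn1a and 0.694 for Plk2), without mouse 2 neither passed (0.0947 and 0.121), and Plk2 also missed without mouse 1 (0.214) and in DESeq2 (0.322). The log2 fold changes over all these alternatives were 0.38 to 0.72 for Cdkn1a and 0.59 to 1.02 for Plk2.

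Mdm2 was higher in 3 of 3 mice (log2 fold change 0.28, SE 0.12, adjusted p = 0.269) and passed only when the second library of VIP-treated mouse 3 was left out (0.38, adjusted p = 0.0461). Ccng1 was likewise higher in 3 of 3 mice (log2 fold change 0.25, SE 0.10, adjusted p = 0.205). Trp53 was lower in 3 of 3 mice without passing (log2 fold change -0.19, SE 0.10, adjusted p = 0.399), and the remaining 5 genes lay at -0.12 to 0.43. Of the lists, 8 of 19 immediate early genes, 6 of 7 goblet cell markers and 3 of 13 paralogs rose, 2 of 15 repair, metabolism and secretion genes rose and 1 fell, and no gene of the apoptosis arm, the regulators or the cell cycle list was called. The sum of goblet cell markers was 5346 to 7216 CPM in controls and 7709.9 to 9398 CPM with VIP, higher in 3 of 3 paired mice. Of 10 enterocyte markers 1 rose and 2 fell, while 6 had a positive log2 fold change and the median was 0.12. Their sum, in which abundant markers weigh most, was 16385 to 17462 CPM in controls and 13118 to 15865 CPM with VIP, lower in 3 of 3 paired mice. Neither sum overlapped between the groups, and their part in the rise of Cdkn1a was not tested. The experiments differ in cells, genotype and time, so their VIP values are set side by side and the difference between them was not tested.

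**Figure D5:**
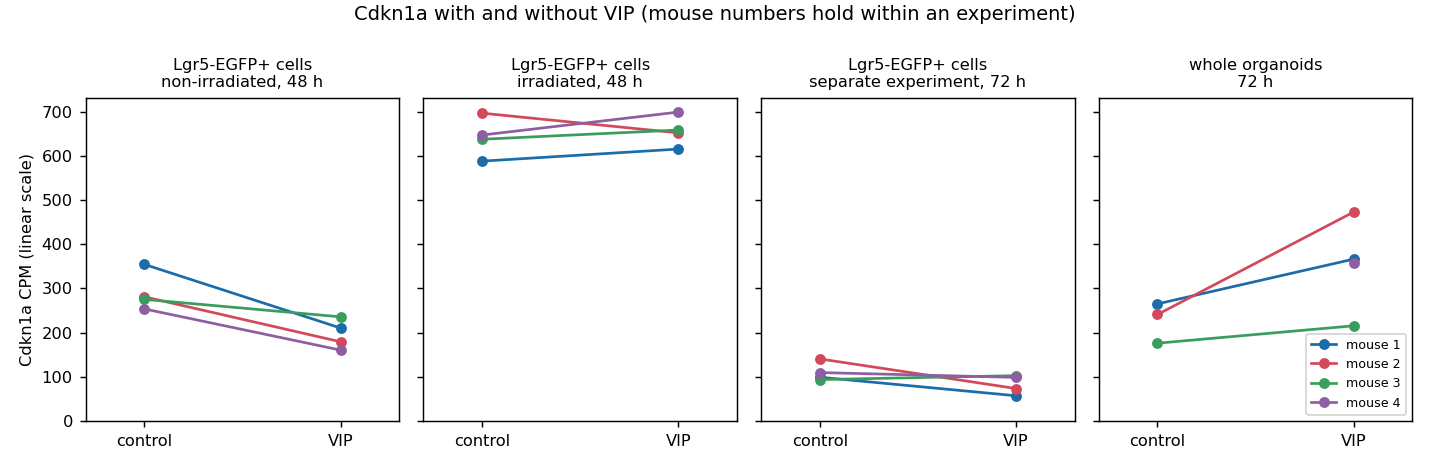
Cdkn1a level in CPM (linear axis from 0) without and with VIP in each experiment, with points joined by mouse. In non-irradiated sorted cells at 48 h the values lay at 254 to 354 CPM without VIP and 160.3 to 236 CPM with it. They lay at 588 to 699 CPM after irradiation whatever the treatment, and were higher in the 3 paired mice of whole organoids.

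Across the 16 samples of the irradiation experiment the 8 responding genes followed each other. Pearson's r between pairs of them, on log2 CPM centred within mouse, was 0.807 to 0.979 (median 0.92 over 28 pairs), which contains the irradiation difference that they share. The 8 genes were picked by that difference in these same samples, so high r among them is no separate result. Pairs with Trp53 had r of -0.79 to 0.23 and pairs with Sesn1 -0.54 to 0.23. Among all genes tested, those most like Cdkn1a were Phlda3 (r = 0.994), Ddit4l (0.988), Dcxr (0.986), Crip2 (0.983) and Mdm2 (0.979). Those most like Mdm2 were Cdkn1a (0.979), Fndc10 (0.977), Ddit4l (0.977), Ptp4a3 (0.976) and Dcxr (0.975). In mean CPM, Phlda3 was at 68.6 without irradiation or VIP, 49.4 with VIP, 176 after irradiation and 176 after irradiation with VIP, beside 291, 196, 642 and 656 for Cdkn1a.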

How the data were processed

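RNA of 31 samples, each the organoids of 1 mouse under 1 treatment, was sequenced in 3 experiments. The authors barcoded the cDNA of each sample, added UMIs at the 3′ end and ran the Drop-seq pipeline 1.0 against GRCm38 and GENCODE M25. The deposited values are the resulting raw UMI counts of each gene and library, not normalized. All columns were matched to samples (0 without one), and the 13 technical libraries of whole organoids were summed per mouse and treatment. Gene positions are from GENCODE M21 (97.0% of the symbols of the irradiation experiment found).

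Counts were filtered with filterByExpr and tested in edgeR 4.0.16 (R 4.3.3, limma 3.58.1) with the quasi-likelihood test, TMM scaling and mouse as a block, one fit per experiment, with Benjamini-Hochberg adjustment over all genes tested and a threshold of 0.05. DESeq2 1.42.0 was an alternative, beside other scalings, filters, no block, no mitochondrial genes and leaving out each mouse. The fit was run on simulated counts that held no mouse effect and only large known changes. The pairing and differences as small as those with VIP were therefore not covered. Log2 CPM for correlations used a prior count of 2. Depth was 575242 to 6330404 UMIs per sample, which limits low genes of the separate sorted-cell experiment.

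The pairing comes from the organoid line named in the labels. Deviations from group means correlated at -0.07 to 0.16 within mice and -0.20 to 0.20 between mice in the irradiation experiment, at 0.03 to 0.21 and -0.14 to 0.15 in the separate sorted-cell experiment, and at 0.27 to 0.63 and -0.54 to 0.33 in whole organoids. The members and the gene lists were chosen with earlier results of these data known. All 10 members are named in each comparison. Of each list, up to 4 genes with the smallest p under irradiation without VIP are named, and for Cdkn1a and Mdm2 the 5 most similar genes. Other genes named as called in the other comparisons were chosen after their values were seen. No protein sequence was used here.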

Additional observations from a re-analysis of the deposited data

Results flagged for a closer look

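In 4 of the 58 combinations of a gene and a group of 4 samples that were examined (genes under the filter on low counts were left out), a single sample stood apart from the others by Dixon's criterion, and chance alone does this in about 1 in 20 groups. Trp53 of mouse 2 was at 214 CPM in VIP-treated, non-irradiated cells, against 186 to 187 CPM in the other 3 mice. Zmat3 of mouse 2 was at 37.4 CPM in irradiated cells without VIP, against 27.8 to 29.0 CPM. In VIP-treated whole organoids, Ccng1 of mouse 2 was at 94.0 CPM against 74.4 to 77.0 CPM, and Btg2 of mouse 3 was at 129 CPM against 103 to 106 CPM.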

How the results depend on the processing

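Of the counts of called genes recomputed under an alternative, 74 stayed within 1.5 times the count reported, 2 were larger and 4 smaller. With no filter on low counts, VIP in non-irradiated cells called 2 of the 10 genes and the interaction 1. In whole organoids DESeq2 called 1 gene, the fit with no replicate block called 0, and leaving out a mouse with the paired block kept gave 0 to 2. Leaving out the block changed no other call. Both irradiation comparisons called 6 to 8 genes throughout, with 6 where at least 10 counts in every sample were required, which leaves low genes untested.

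Of the single-gene differences, 701 kept direction and call, 3 became calls, 8 lost theirs and 17 changed sign, the last all in genes that were not called, on leaving out 1 mouse. Their leave-one-out ranges on the log2 scale were as follows. For VIP in non-irradiated cells they were -0.20 to 0.13 for Sesn1, -0.29 to 0.031 for Sesn2, -0.27 to 0.014 for Plk2 and -0.39 to 0.061 for Trp53inp1. For the interaction they were -0.076 to 0.27 for Sesn1, -0.10 to 0.26 for Sesn2 and -0.12 to 0.14 for Trp53. For VIP in irradiated cells they were -0.055 to 0.19 for Mdm2, -0.11 to 0.10 for Ccng1 and -0.038 to 0.18 for Sesn1. Sesn1 under irradiation with VIP ran from -0.17 to 0.018, Ccng1 and Btg2 at 72 h in sorted cells from -0.070 to 0.37 and -0.18 to 0.053, and Sesn2 in whole organoids from -0.26 to 0.10. The causes were not tested. Leaving out the second library of VIP-treated mouse 3 was chosen after seeing the data. Low counts limit Trp53inp1 and Zmat3, and 4 mice limit all tests.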
